A study of Homo sapiens with 4 samples.

Results

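The subunits of protein phosphatase 6 (PP6) were examined in a pooled CRISPR-Cas9 knockout screen for genes that alter the response of A549 cells to HQ461. The set holds 6 of the 19112 genes in the sgRNA count table: the catalytic subunit PPP6C, the SAPS-domain subunits PPP6R1, PPP6R2 and PPP6R3, and the ankyrin-repeat subunits ANKRD28 and ANKRD52. Each gene was targeted by 4 sgRNAs, 24 in all. The genes were chosen by their place in one complex, with the sgRNA counts with HQ461 against DMSO already known, so every value of that contrast is given as a description, without a test. A549 is a human lung adenocarcinoma cell line, and all samples were A549 cells infected with the genome-wide Brunello library at a multiplicity of infection of 0.3 and selected with puromycin. Cells were then passaged for 3 weeks in 4 µM HQ461, a molecular glue that leads to degradation of cyclin K, or in 0.1% DMSO, the vehicle. The labels name 2 biological replicates for each condition, but the count table has a single column named for both, which may hold their sum or only one of them, so no difference below has a replicate check.

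PP6 is a serine/threonine phosphatase of the PPP family, related to PP2A and PP4. Its catalytic subunit works in a trimer, in which a SAPS-domain subunit and an ankyrin-repeat subunit bring it to its substrates. In dividing cells PP6 is best known for opposing the activating phosphorylation of Aurora A bound to TPX2, and it has also been linked to DNA-PK and to the Hippo pathway. In a screen of this kind, an sgRNA that is rarer with the compound than with the vehicle marks knockout cells that were recovered less often in its presence.

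The HQ461 column held 16127620 counts and the DMSO column 14428845, with a median of 110 and 152 per targeting sgRNA. Counts were scaled by the median ratio, 1 was added, and the log2 fold change is HQ461 over DMSO throughout. The 997 non-targeting control sgRNAs with counts, which cut no gene, had their 1st and 99th percentiles of log2 fold change at -1.67 and 2.92. These controls were deeper than targeting sgRNAs, with a median of 525 counts with DMSO. Intervals are exact 95% Clopper-Pearson intervals of the ratio of the counts, and cover counting error only, since PCR reads were counted without molecular identifiers. The table identifies sgRNAs by number, and their sequences were not used here.

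PPP6C sgRNAs were almost lost with HQ461. The 4 sgRNAs, numbers 14690, 14689, 14691 and 14688 of the library, had 152, 103, 53 and 14 counts with DMSO. With HQ461 they had 1, 1, 0 and 0 counts. All 4 were therefore low with HQ461, although the first stood near the middle of the library with DMSO, at the 50.1 percentile of targeting sgRNAs. The sgRNA with 152 counts was 105-fold lower after scaling (interval 18.6 to 4193), and the one with 103 counts was 71.5-fold lower (12.5 to 2850). For the sgRNAs at 0, a floor of 3 counts per library gives a level at least 12.3-fold lower for the one with 53 counts and at least 3.24-fold lower for the one with 14. Summed over the gene, the counts went from 322 to 2, which is 112-fold lower (interval 30.7 to 927).

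**Figure D1:**
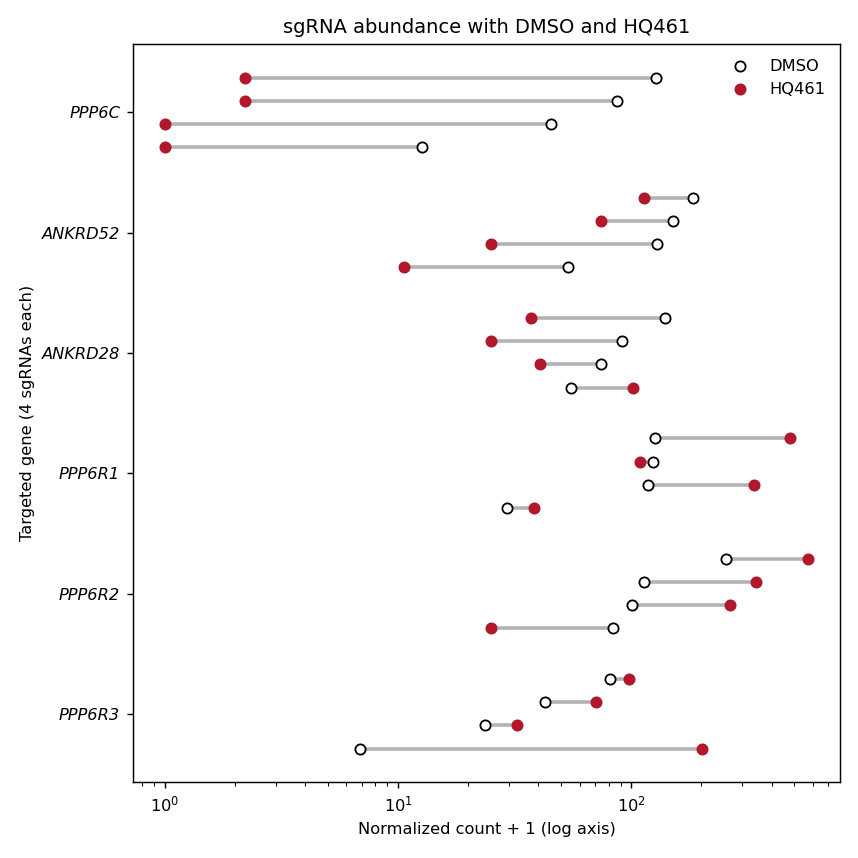
Normalized count plus 1 (log axis) of each of the 24 sgRNAs against PP6 genes with DMSO (open points) and HQ461 (filled points), joined by a line for each sgRNA. The 4 PPP6C sgRNAs lie at the left edge with HQ461, at 0 or 1 counts, while the sgRNAs of the SAPS genes mostly lie to the right of their DMSO points.

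The median log2 fold change of PPP6C was -5.40, the third lowest of 19111 genes after DDB2 (-5.99) and TOR1AIP2 (-5.75). It is -4.30 when the sgRNAs at 0 are set to the floor of 3 counts, and -2.77 with 10 in place of 1 added to the normalized counts, which still left PPP6C at place 3. By the score of robust rank aggregation (RRA), the MAGeCK measure of how far the sgRNAs of a gene rank low together, PPP6C was at place 13 for depletion. In 12 genes of the table all sgRNAs had 0 or 1 counts with HQ461. Of these PPP6C had the most counts with DMSO, 322, and PRPF4 came next with 67. This comparison was chosen after the values had been seen.

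Loss to 0 or 1 counts was rare over the library at these depths. The limits of 0 or 1 and of 50 counts were chosen with the PPP6C counts known, so the shares are a description. Of the 67410 targeting sgRNAs with at least 50 counts with DMSO, 83 (0.123%) had 0 or 1 counts with HQ461, and 3 of these were against PPP6C. Of 989 control sgRNAs with at least 50 counts with DMSO, 0 did so, which allows a share of up to 0.303%. Among 48157 targeting sgRNAs with a DMSO count between 0.5 and 2 times 152, 40 (0.0831%) had 0 or 1 counts with HQ461. For the sgRNA with 14 counts, 322 of 3400 such sgRNAs (9.47%) were also at 0, so its count of 0 says little. No support for PPP6C is drawn from the other shares either.

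Both ankyrin-repeat genes of the set, ANKRD28 and ANKRD52, were lower with HQ461, by less than PPP6C. A related gene outside the set, ANKRD44, had a median log2 fold change of 0.58 (-0.10 when scaled by total counts). The products of ANKRD28 and ANKRD52 carry long arrays of ankyrin repeats and join the trimer through the SAPS subunit. The sgRNAs of ANKRD52 had 220, 180, 153 and 63 counts with DMSO and 94, 61, 20 and 8 with HQ461. All 4 were lower, with log2 fold changes of -0.69, -1.02, -2.36 and -2.33, and every counting interval lay below 0. The sgRNAs with 153 and 63 counts were 5.31-fold lower (interval 3.32 to 8.94) and 5.46-fold lower (2.61 to 13.2). The gene median was -1.68, at place 331 from the lowest of 19111 genes, and at place 500 by the RRA score for depletion.

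ANKRD28 was less uniform. Its sgRNAs had 166, 108, 88 and 65 counts with DMSO and 30, 20, 33 and 84 with HQ461. The first 3 were lower, at log2 fold changes of -1.91, -1.86 and -0.87, and the fourth was higher, at 0.88 (interval 0.41 to 1.39, and 0.21 when scaled by total counts). The spread between sgRNAs of this gene was therefore larger than counting error. Its median was -1.37, at place 635 from the lowest. When counts were summed over the gene, in place of the median, the log2 fold change was -0.82 for ANKRD28 and -1.22 for ANKRD52.

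**Figure D2:**
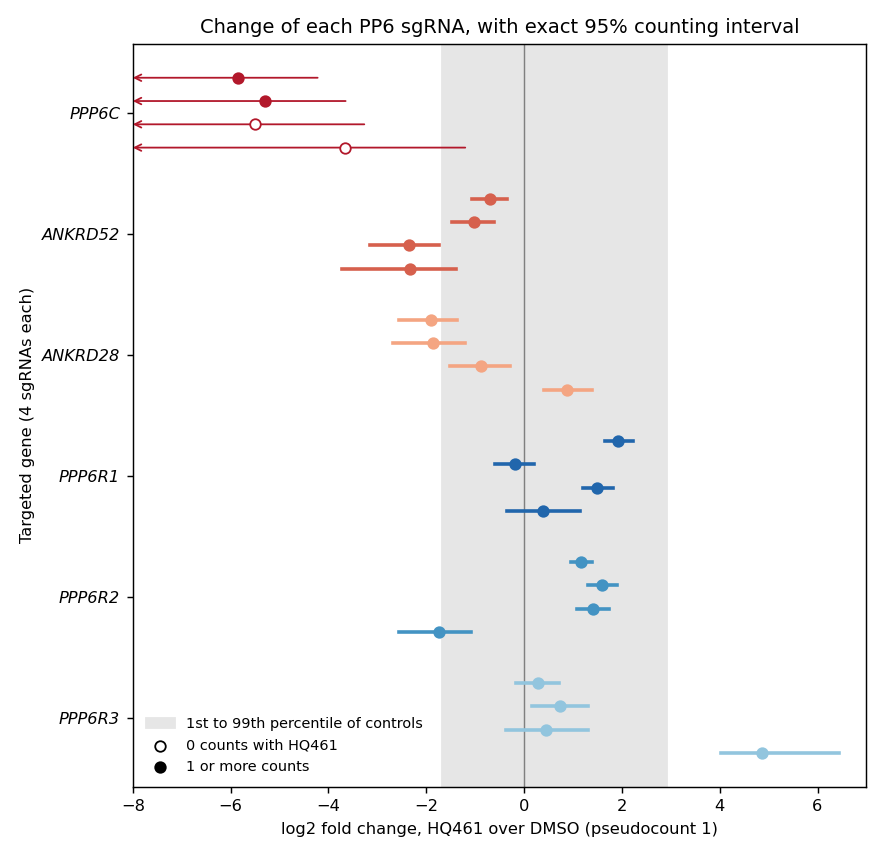
log2 fold change (HQ461 over DMSO) of each PP6 sgRNA, with bars for the exact 95% counting interval, arrows where the interval runs past -8 or has no lower end, and open points for 0 counts with HQ461. The grey band spans -1.67 to 2.92, the 1st to 99th percentile of non-targeting controls. All 4 PPP6C points lie to its left, as do 2 each for ANKRD52 and ANKRD28 and 1 for PPP6R2.

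The 3 SAPS genes, whose products bind the catalytic subunit directly, did not share the direction of PPP6C. Of their 12 sgRNAs, 10 had a log2 fold change above 0, where the median of all targeting sgRNAs was -0.008. Of their counting intervals, 7 lay wholly above 0 and 1 wholly below, against 36.5% and 34.5% of all targeting sgRNAs. The count of 10 became 7 when columns were scaled by total counts. The gene medians were 1.29 for PPP6R2, 0.94 for PPP6R1 and 0.59 for PPP6R3 relative to the median sgRNA. Scaling by total counts moved the median of all genes by -0.68 and gave 0.60 and 0.26 for PPP6R2 and PPP6R1, while PPP6R3 turned to -0.077. Scaling by the non-targeting control sgRNAs instead gave 1.32 for PPP6R2, 0.98 for PPP6R1 and 0.63 for PPP6R3.

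For PPP6R1 the counts were 150, 148, 141 and 34 with DMSO and 399, 90, 278 and 31 with HQ461. The sgRNAs with 150 and 141 counts were higher by 1.93 and 1.50 on the log2 scale, and the intervals of the other pair included 0. For PPP6R2 the counts were 305, 135, 120 and 99 with DMSO and 478, 284, 221 and 20 with HQ461. Its first 3 sgRNAs were higher by 1.17 to 1.59, and the fourth was lower, at -1.74 (interval -2.55 to -1.08). One sgRNA of PPP6R2 thus went against the others by more than counting error.

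PPP6R3 sgRNAs had 96, 50, 27 and 7 counts with DMSO and 81, 58, 26 and 166 with HQ461. Of these 3 differed by less than 2-fold, with log2 fold changes of 0.28, 0.73 and 0.46. Among them only the interval at 0.73 lay wholly above 0 (0.17 to 1.32). The fourth was 34.2-fold higher (interval 16.2 to 86.3), from a DMSO count at the 2.09 percentile of targeting sgRNAs. Summed counts therefore gave PPP6R3 a log2 fold change of 1.40, set mostly by that sgRNA. Without sgRNAs under 30 normalized counts with DMSO, 2 of PPP6R3 were left, at a median of 0.50, and PPP6R1 had a median of 1.50 over 3 sgRNAs.

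Of the 24 sgRNAs, 9 lay below the 1st percentile of controls, against 7.53% of all targeting sgRNAs. These were the 4 of PPP6C, 2 each of ANKRD28 and ANKRD52, and 1 of PPP6R2. The fourth PPP6R3 sgRNA alone lay above the 99th percentile of controls, against 2.44% of all targeting sgRNAs. Counting intervals lay wholly below 0 for 12 of the 24 and wholly above 0 for 8, against 34.5% and 36.5% over the library, where most sgRNAs differed by more than counting error. At the gene level, 3 of the 6 were at least 2-fold lower, against 7.69% of genes, and 1 (PPP6R2) was at least 2-fold higher, against 9.01%. The genes were chosen with this contrast known, so these shares describe the set and nothing is read from them.

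**Figure D3:**
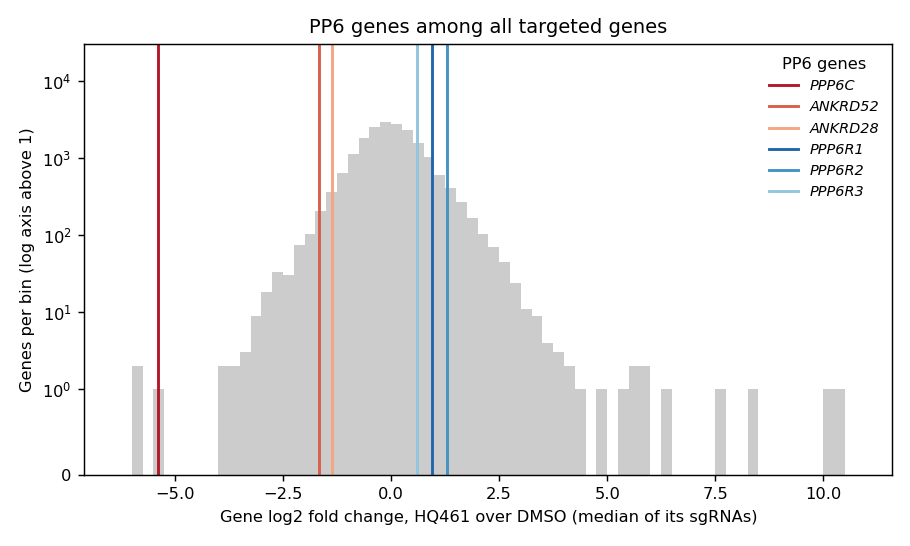
Histogram of the median log2 fold change of 19111 genes (bars, genes per bin of 0.25, log axis above 1), with a line for each PP6 gene. PPP6C, at -5.40, lies apart from the bulk of genes, ANKRD52 (-1.68) and ANKRD28 (-1.37) lie on its lower side, and the SAPS genes lie between 0.59 and 1.29.

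PP6 genes were also unequal with DMSO alone. Their summed counts with DMSO were 180 for PPP6R3, 322 for PPP6C, 427 for ANKRD28, 473 for PPP6R1, 616 for ANKRD52 and 659 for PPP6R2. PPP6R3 stood at the 4.94 percentile of genes and PPP6C at the 11.2 percentile, while PPP6R2 was at the 49.3 percentile. Counts of the library before the 3 weeks were not analysed here, so depletion during growth in DMSO and a low starting abundance cannot be told apart.

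The near loss of sgRNAs against PPP6C was not seen for the other catalytic subunits of the PPP family. The 12 other genes have 48 sgRNAs, of which 1 lay below the 1st percentile of controls and 1 above the 99th, against 7.53% and 2.44% of all targeting sgRNAs. Their gene medians ran from -0.36 for PPP3CA, a calcineurin subunit, to 1.32 for PPP1CA, a PP1 subunit, around a list median of 0.42, against -0.02 over all genes. Scaled by total counts these values become -1.04, 0.64 and -0.26, with -0.70 over all genes. Of the closest relatives, PPP2CA, the main PP2A subunit, had 214, 53, 50 and 24 counts with DMSO and 146, 58, 115 and 116 with HQ461, a median of 1.18 (0.50 when scaled by total counts). PPP2CB had a median of 0.26, which turned to -0.42 under that scaling. PPP4C, the PP4 subunit, had a median of 0.65, but its sgRNAs held only 28 counts with DMSO in sum and 48 with HQ461, so a loss as large as that of PPP6C could not be measured at this depth. These values are set side by side, and the difference between genes was not tested.

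**Figure D4:**
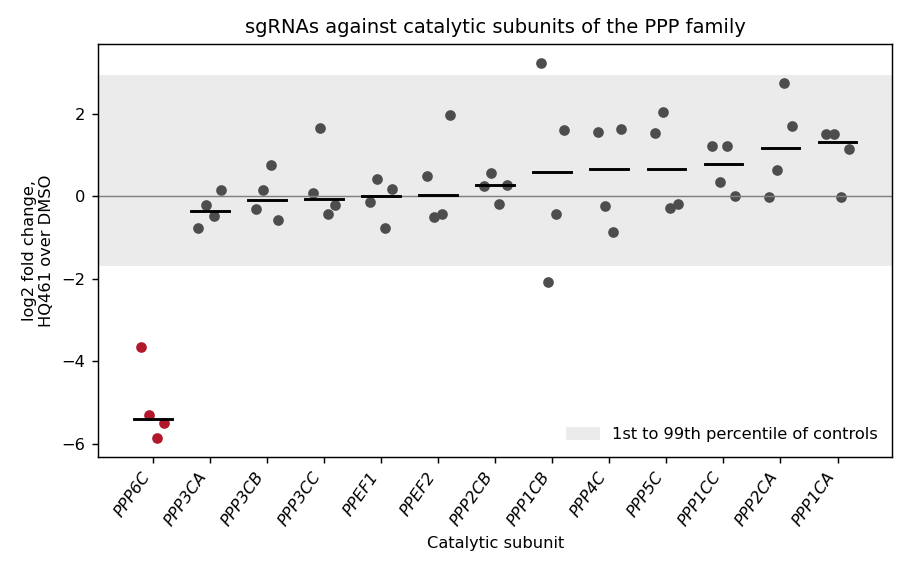
log2 fold change of the sgRNAs (points) and their median (bars) for the catalytic subunits of the PPP family, ordered by median, with the 1st to 99th percentile of controls in grey. All 4 PPP6C points lie between -5.86 and -3.66, below every point of the 12 other genes, the lowest of which is at -2.09.

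ANKRD44, the third ankyrin-repeat protein that can join PP6, differed from ANKRD28 and ANKRD52. Its sgRNAs had 157, 130, 124 and 84 counts with DMSO and 187, 149, 114 and 80 with HQ461. The log2 fold changes were 0.77, 0.72, 0.40 and 0.45, close to each other, with a gene median of 0.58. All 4 were thus on the other side of the median sgRNA from the 4 of ANKRD52, although the median of ANKRD44 turned to -0.10 when scaled by total counts, against -2.34 for ANKRD52.

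Genes of processes in which PP6 acts are given beside the shares over all genes, 7.69% at least 2-fold lower and 9.01% at least 2-fold higher. Of 6 genes of the Aurora A module, 0 were at least 2-fold lower and 0 at least 2-fold higher, with a list median of -0.07. AURKA itself, the kinase that PP6 opposes, had a median of 0.35 over 3 sgRNAs with counts (-0.11 when scaled by total counts), and 2 of these had no more than 10 counts with DMSO. PLK1, in the same list, held 46 counts with DMSO in sum and 16 with HQ461. Its sgRNAs ran from -3.66 to 0.61, so its place says little. Of the 3 DNA-PK genes, 2 were at least 2-fold lower, PRKDC at -1.49 and XRCC5 at -1.07, and XRCC6 was at -0.94. PRKDC, the catalytic subunit of DNA-PK, had 135, 113, 101 and 65 counts with DMSO and 50, 52, 4 and 10 with HQ461, so all 4 of its sgRNAs were lower. XRCC5 and XRCC6 each had 3 of 4 sgRNAs lower, with the highest at 0.45 and 0.79. Their summed counts were 62 and 149 with DMSO and 27 and 92 with HQ461. After scaling, both sums were lower by less than 2-fold, and that of XRCC6 only slightly. Of 7 Hippo genes, 0 were at least 2-fold lower and STK3, an upstream kinase, was at least 2-fold higher, at 1.24, but at 0.55 when scaled by total counts, with a list median of -0.09.

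The positions of the genes were taken from GENCODE 44 on GRCh38. PPP6C lies on chromosome 9, from 125146573 to 125189939 on the minus strand. None of the 15 other genes within 1 Mb that could be placed was as low as PPP6C, their median log2 fold change being -0.13 and the lowest -2.15. ANKRD52 (chromosome 12, 56237807 to 56258384) had 71 neighbours with a median of -0.32. Of these, 12 were at least 2-fold lower, against 7.69% of all genes, and 2 were as low as ANKRD52 itself. ANKRD28 (chromosome 3, 15667236 to 15859771) had 16 neighbours with a median of -0.19. Of these, 4 were at least 2-fold lower, against the same 7.69%, and none was as low as ANKRD28. PPP6R3 (chromosome 11, 68460731 to 68615334) had 21 neighbours with a median of 0.16, and 5 of them were as high or higher. Of the 21, 4 were at least 2-fold higher, against 9.01% of all genes, and 0 were at least 2-fold lower. Neighbours of PPP6R1 (chromosome 19, 55229779 to 55259017) and PPP6R2 (chromosome 22, 50343304 to 50445090) had medians of 0.16 and -0.04, and 2 of 73 and 0 of 33 were as high. The part of position in these values was not tested.

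**Figure D5:**
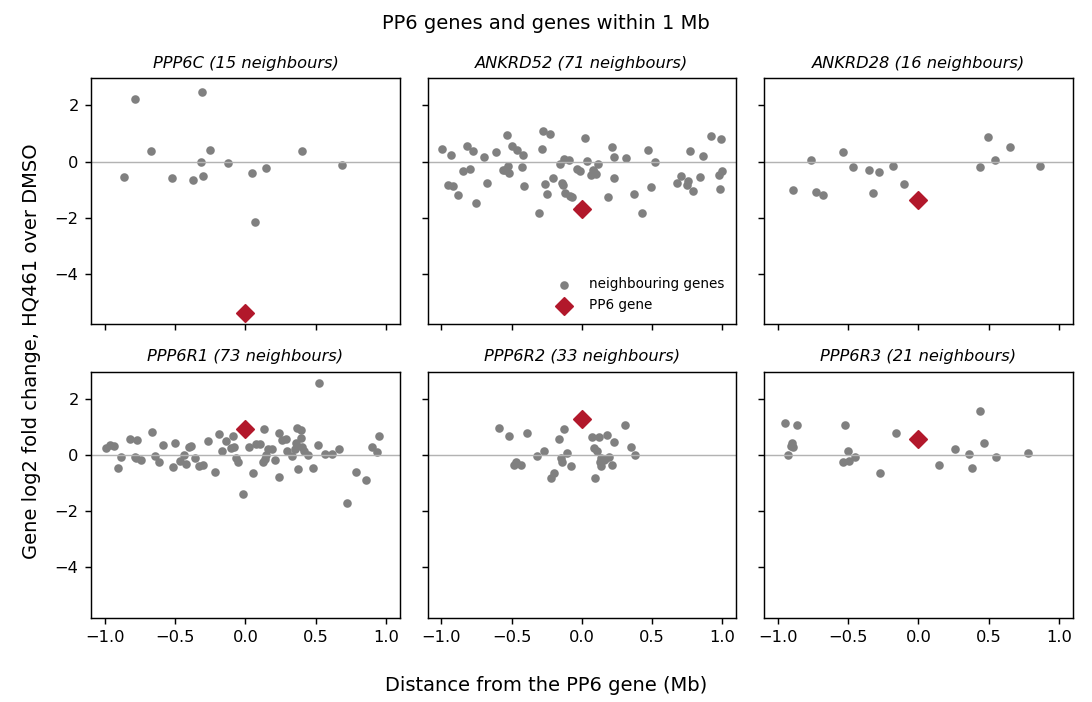
Change of each PP6 gene (diamond, median log2 fold change of its sgRNAs) and of the genes within 1 Mb of it (points), by distance in Mb. PPP6C is at -5.40 and its lowest neighbour at -2.15, whereas ANKRD52, PPP6R1 and PPP6R3 lie within the range of their neighbours.

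The 5 genes whose sgRNA log2 fold changes, sorted, lay nearest to those of PPP6C among 18857 genes with 4 sgRNAs were DDB2, TOR1AIP2, RHOA, FPGS and EIF2S1. DDB2, a DNA damage receptor of the DDB1-CUL4 ligase, was nearest, at a Euclidean distance of 1.65, with 467 counts with DMSO and 4 with HQ461. TOR1AIP2, a torsin cofactor, went from 698 counts to 6, and RHOA, a small GTPase, from 323 to 12. FPGS, which adds glutamates to folates, went from 379 to 29 and EIF2S1, the alpha subunit of eIF2, from 104 to 5. The likeness rests on the same pair of columns and is a description.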

How the data were processed

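Reads per sgRNA were counted by the authors with MAGeCK 0.5.9.2, and the raw counts were deposited, not normalized, in 2 columns. Whether a column sums both replicates or holds 1 is not given in the sources. The comparison had been written for 4 libraries as well, and the tests that need them were not run.

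The software was Python 3.11.15, scipy 1.17.1, numpy 2.4.6 and matplotlib 3.10.9. The 273 sgRNAs at 0 in both columns were left out, and median-ratio size factors were 0.833 for HQ461 and 1.20 for DMSO. A gene's log2 fold change is the median over its sgRNAs. RRA scores were written anew after the MAGeCK description, on z from its mean-variance model, without p-values. The code was run on simulated counts in which all sgRNAs of a gene shared the same effect. That setting differs from the discordant sgRNAs seen here, so it is no check of the ranks given. Members and gene lists were chosen with earlier results of these data known, and 1 listed gene was not found by symbol. Symbols placed 17761 genes on GENCODE 44. Named were the members, list genes at or past 2-fold or catalytic, ANKRD44, and the 5 genes nearest to PPP6C. AURKA, PLK1, XRCC6, IGBP1 and PRPF4 were named beyond this rule, after their values were seen. Alternatives were other scalings (total counts, the control sgRNAs, and TMM from edgeR 4.0.16), pseudocounts, a minimum count, summed counts and removal of 1 sgRNA per gene.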

Additional observations from a re-analysis of the deposited data

How the results depend on the processing

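PPP6C had a median log2 fold change between -6.31 and -5.30 and places 1 to 3 from the lowest gene under the gene-level alternatives set in advance except for 10 added to normalized counts, where it was at -2.77 and place 3. It was at -4.30 with its sgRNAs at 0 set to 3 counts, an alternative chosen after seeing the data. With 10 added, ANKRD52 was at -1.31 and 776 genes were at least 2-fold lower, against 1470. Scaling by total counts gave 0.26 for PPP6R1, 0.60 for PPP6R2, -0.077 for PPP6R3, -2.04 for ANKRD28 and -2.34 for ANKRD52, with 520 genes at least 2-fold higher, against 1722, and 6138 at least 2-fold lower. TMM gave 0.91, 1.26, 0.56, -1.40 and -1.71 for these 5 genes in the same order. Scaling by control sgRNAs gave 0.98, 1.32, 0.63, -1.33 and -1.64. Summed counts gave 1.28, 1.13, 1.40, -0.82 and -1.22 for these 5 genes, and 3460 genes higher and 704 lower. A minimum of 30 normalized counts with DMSO gave 1.50 for PPP6R1 and left 0 member sgRNAs above the 99th percentile of controls, since it removed the 1 that was. Removing the most enriched sgRNA of each gene gave 0.38 for PPP6R1, -1.86 for ANKRD28 and -2.33 for ANKRD52, with 996 genes higher and 3319 lower. Removing the most depleted gave 1.50, -0.87 and -1.02, with 3485 higher and 734 lower. Both removals shift all genes by their construction, and scaling by total counts moved the median of all genes by -0.68. Ranking sgRNAs by log2 fold change put PPP6C at place 3 by RRA score for depletion, and a fixed alpha of 0.05 put ANKRD28 at place 2362 and PPP6R3 at place 742 for enrichment, against 672 and 449. The cause was not tested for the other shifts.

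No paired analysis was possible because a single column is named for both replicates of a condition, and for the same reason no replicate was left out and edgeR was not run as a test. Depth limits PPP4C, PLK1 and XRCC5 (28, 46 and 62 counts in sum with DMSO), 2 sgRNAs of AURKA and the fourth sgRNAs of PPP6C and PPP6R3 (14 and 7 counts).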

Other observations

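Regulatory subunits of PP4, a relative of PP6, lay on both sides of the median gene. Of 6 PP4 genes, 2 were at least 2-fold lower and 1 was at least 2-fold higher, against 7.69% and 9.01% of all genes. PPP4R3A, listed as SMEK1, had 131, 99, 74 and 64 counts with DMSO and 44, 12, 3 and 31 with HQ461, a median log2 fold change of -1.74. PPP4R2 had 365, 359, 147 and 85 counts with DMSO and 150, 224, 26 and 1 with HQ461, a median of -1.35. PPP4R3B, listed as SMEK2, had 218, 85, 62 and 53 counts with DMSO and 563, 62, 141 and 565 with HQ461, a median of 1.79 (1.11 when scaled by total counts).

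Of 16 measured PP2A scaffold and regulatory genes, 1 was at least 2-fold lower and 2 were at least 2-fold higher. The shares over all genes were 7.69% and 9.01%. The lower gene was STRN3, a striatin, at -1.27. The higher ones were PPP2R1A, the scaffold, and PPP2R2A, a B subunit, at 1.52 and 1.30, but at 0.85 and 0.63 when scaled by total counts. Of 5 regulators shared by PP2A-like phosphatases, 2 were at least 2-fold lower and 0 at least 2-fold higher, against the same shares. The lower ones were TIPRL, which binds the catalytic subunits of these phosphatases, and PPP2R4 (now PTPA), an activator of PP2A, at -1.59 and -1.13. TIPRL sgRNAs had 170, 61, 41 and 15 counts with DMSO and 21, 54, 12 and 2 with HQ461. Those of PPP2R4 disagreed, with log2 fold changes from -3.98 to 1.74. Their sum was 269 counts with DMSO and 219 with HQ461, which is not lower after scaling. IGBP1, a chaperone-like partner of these catalytic subunits, had a median of -0.09 that hid a wide spread, from 58 counts to 679 for one sgRNA and from 18 to 0 for another.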
